A study of Homo sapiens with 9 samples.

Results

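Chromatin accessibility was examined at 7 genes of cytosolic RNA sensing in HEK293T, a widely used cell line derived from human embryonic kidney. The genes were RIGI, IFIH1, DHX58, MAVS, TRIM25, RNF135 and ZC3HAV1, a set defined by function. No measured value entered its definition, but it was chosen with earlier results of these data known. All ATAC-seq peaks that overlapped one of these genes, or the 10 kb on either side, were collected from 4 peak lists. Overlapping peaks of different lists were joined into 1 region, which gave 20 regions among 71597 in the genome. The control list contributed 16 peaks, and the lists for knockout of IGF2BP1, IGF2BP2 and IGF2BP3 contributed 16, 20 and 15.

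RIG-I-like receptors are helicases that bind viral or misplaced double-stranded RNA in the cytosol and start an interferon response. RIG-I (RIGI) recognises short duplexes with triphosphate ends, MDA5 (IFIH1) coats long duplexes, and LGP2 (DHX58), which has no caspase recruitment domains, modulates the other receptors. Activated RIG-I and MDA5 nucleate filaments of the mitochondrial adaptor MAVS, which recruits the kinases that activate IRF3, IRF7 and NF-kappaB. TRIM25 and RNF135 (Riplet) are ubiquitin ligases that promote RIG-I signalling, and ZC3HAV1 (ZAP) binds CpG-rich foreign RNA with TRIM25 as a cofactor. The genes of several of these proteins are themselves induced by interferon.

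The 4 groups differed in genotype, received no treatment, and comprised 9 libraries. Batches 2 and 3 each gave 1 library of every group: the control, made with a guide that targets no gene, and the knockouts of IGF2BP1, IGF2BP2 and IGF2BP3. Batch 1 added another library for the IGF2BP1 knockout, which thus had 3 against 2 in the other groups. IGF2BP1, IGF2BP2 and IGF2BP3 are related RNA-binding proteins. Each knockout was made by transient transfection of a plasmid with 3 guides and a GFP marker, and 1 sorted clone represents each genotype, and the effects of clone and of genotype cannot be told apart. The deposit holds 1 peak list per group, with positions and no heights, so no spread between libraries could be measured, no test was made, and no value could be had within a batch.

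The lists held 39194 (control), 50917 (IGF2BP1 knockout), 60262 (IGF2BP2 knockout) and 44041 (IGF2BP3 knockout) peaks, with median widths of 771, 834, 651 and 713 bp. Read depth is unknown. Because lists of different length and width are not comparable peak by peak, widths are given with their percentile among the peaks of the same list. A peak list measures neither the edit nor RNA, so the knockouts and the labelled cell line were not checked against transcripts. Peaks within 1 kb of an annotated start were present in all 4 lists at IGF2BP1 and IGF2BP2, and in 2 lists, the control and the IGF2BP1 knockout, at IGF2BP3.

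RefSeq promoter sequences (GRCh38.p14) were available for 5 of the 7 members, RIGI, IFIH1, MAVS, TRIM25 and ZC3HAV1. No promoter sequence was used for DHX58 and RNF135. The 250 bases before each start are printed to show which short motifs each gene carries at the peaks described next, which cover them whole except for the far upstream end in ZC3HAV1. For TRIM25 the printed stretch runs 6 bases past the start, to the end of a motif. Sequences read along the gene from 5′ to 3′. Capitals mark GAAA repeats (or their complement) in the first 3 sequences, and they mark GC boxes and the CCAAT box in MAVS and the STAT site and TATA box in ZC3HAV1.
RIGI, chr9:32526197-32526446, minus strand: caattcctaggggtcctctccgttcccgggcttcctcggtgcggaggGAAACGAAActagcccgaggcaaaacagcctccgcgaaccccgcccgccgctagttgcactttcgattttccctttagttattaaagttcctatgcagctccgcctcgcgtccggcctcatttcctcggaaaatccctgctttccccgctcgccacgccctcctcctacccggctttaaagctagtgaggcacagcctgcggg
IFIH1, chr2:162318685-162318934, minus strand: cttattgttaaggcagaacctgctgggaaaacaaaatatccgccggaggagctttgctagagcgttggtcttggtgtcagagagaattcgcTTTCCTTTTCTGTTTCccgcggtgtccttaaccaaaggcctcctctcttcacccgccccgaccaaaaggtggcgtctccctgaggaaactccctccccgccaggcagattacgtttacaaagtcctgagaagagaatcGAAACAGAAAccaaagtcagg
TRIM25, chr17:56914044-56914299, minus strand: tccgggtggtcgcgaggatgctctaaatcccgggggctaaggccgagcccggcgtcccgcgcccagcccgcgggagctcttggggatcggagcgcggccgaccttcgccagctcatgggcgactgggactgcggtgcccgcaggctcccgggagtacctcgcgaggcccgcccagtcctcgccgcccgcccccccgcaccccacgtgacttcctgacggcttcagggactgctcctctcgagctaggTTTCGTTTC
MAVS, chr20:3846584-3846833, plus strand: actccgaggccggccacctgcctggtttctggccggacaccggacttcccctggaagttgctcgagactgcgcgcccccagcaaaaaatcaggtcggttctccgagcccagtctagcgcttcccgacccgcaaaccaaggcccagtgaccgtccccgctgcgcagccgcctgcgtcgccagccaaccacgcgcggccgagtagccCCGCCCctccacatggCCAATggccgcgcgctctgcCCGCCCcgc
ZC3HAV1, chr7:139109721-139109970, minus strand: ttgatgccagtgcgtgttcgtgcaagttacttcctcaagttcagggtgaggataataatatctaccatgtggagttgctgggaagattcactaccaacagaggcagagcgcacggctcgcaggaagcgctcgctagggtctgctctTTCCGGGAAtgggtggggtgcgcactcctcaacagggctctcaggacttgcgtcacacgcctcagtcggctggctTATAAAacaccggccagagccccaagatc

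Motifs were searched on both strands of the 300-base window that runs from 250 bases before to 50 bases after the start. The core of the interferon-stimulated response element, read here as a pair of GAAA words with any 2 bases between them, was found in 3.57% of 34943 distinct windows in the table. Of the 5 members it was present in IFIH1 alone, which held 3 copies. One began 21 bases before the start. The other copies lay on the opposite strand, began 159 and 153 bases before the start and overlapped each other. The nearest annotated start of the neighbouring gene GCA is 79 bp from that of IFIH1, so these copies cannot be assigned to 1 of the genes.

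A pair of GAAA words with 1 base between them was searched after the member sequences had been read, and 3.12% of all windows held it. RIGI had this motif, as GAAACGAAA, beginning 203 bases before its start. TRIM25 had the same letters on the opposite strand, as TTTCGTTTC, beginning 3 bases before its start and running across it.

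ZC3HAV1 held a STAT dimer site (TTC and GAA with any 3 bases between them), with the letters TTCCGGGAA beginning 104 bases before the start, and 7.66% of windows held such a site. It was also the one member of the 5 with a TATA box (TATAAA), which began 29 bases before the start and was found in 11.6% of windows. The MAVS window had 3 GC boxes (GGGCGG on either strand), 1 of them past the start and so not printed, and a CCAAT box. These motifs were present in 44.9% and 34.6% of windows. MAVS held neither GAAA motif and no STAT site. GC boxes were also present in the windows of RIGI (1 copy), IFIH1 (1 copy) and TRIM25 (3 copies). The consensus NF-kappaB site, present in 0.189% of windows, was in none of the 5 windows. A match is a string of letters and does not show that a factor was bound.

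The 5 windows also differed in base composition. GC content was 72.3% in TRIM25, 71.7% in MAVS, 60.3% in RIGI, 55% in ZC3HAV1 and 50.7% in IFIH1, against a median of 58.7% over all windows. The number of CpG dinucleotides followed the same order, with 37 in TRIM25, 34 in MAVS, 27 in RIGI, 17 in ZC3HAV1 and 12 in IFIH1, against a median of 14. IFIH1, with its 3 response element cores, was thus the most AT-rich of these promoters.

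The starts of RIGI, IFIH1, MAVS, TRIM25 and ZC3HAV1 were accessible in every list. A peak within 1 kb of the annotated start, or of either gene end for DHX58 and RNF135, whose strand was not in the promoter table, was present at 6 of 7 members in each list. At 5 of these it was at the start. At DHX58 it was at the gene end of lower coordinate, which may not be the start. The same rule found one at 66.5% of 20056 protein-coding genes in the control. The share was 68.6% for the IGF2BP1 knockout, 68.1% for IGF2BP2 and 67.4% for IGF2BP3. No member gained or lacked such a peak in any knockout. Of coding genes without one in the control, 8.22% gained one with IGF2BP1 knocked out, 8.67% with IGF2BP2 and 6.72% with IGF2BP3. Of those with one in the control, 1.03%, 1.97% and 2.08% lacked it, knockouts in the same order.

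**Figure D1:**
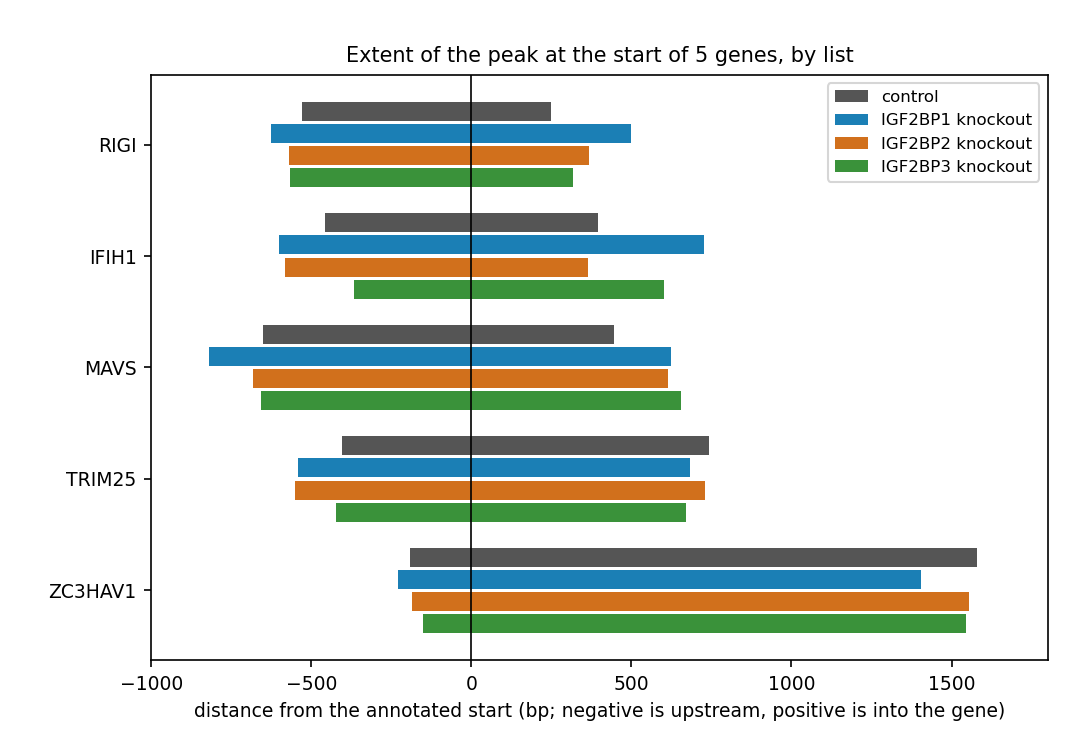
Horizontal bars show how far the peak at the start of 5 genes extends upstream (negative) and into the gene (positive), in bp, for each of the 4 lists; there are no replicates and no error bars. The ZC3HAV1 peaks lie mostly inside the gene, whereas those of RIGI reach further upstream than downstream in every list.

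At RIGI (chr9:32455302-32526196, minus strand), a single region, at the start, was found in the gene and its flanks. Its peak was 778 bp wide in the control list (percentile 50.8), 1125 bp in the IGF2BP1 knockout list (74.3), 938 bp in the IGF2BP2 knockout list (76.4) and 886 bp in the IGF2BP3 knockout list (65.8). The control peak was thus the narrowest of the 4, in bp and in rank. The width relative to control was 1.45, 1.21 and 1.14 in the 3 knockout lists, all of which were compared with the same control list. Upstream of the start the peaks reached 530 bp in the control and 627, 569 and 568 bp in the knockouts, and into the gene they reached 247 bp and 497, 368 and 317 bp, so both sides were longer in each knockout list.

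IFIH1 (chr2:162267074-162318684, minus strand) lies head to head with GCA, which encodes the calcium-binding protein grancalcin. Their nearest annotated starts are 79 bp apart, and a single peak covered both in every list, so that accessibility at this site cannot be assigned to one gene. The peak was 855 bp wide in the control list (percentile 58.1), 1327 bp in the IGF2BP1 knockout list (84.8), 944 bp in the IGF2BP2 knockout list (76.8) and 966 bp in the IGF2BP3 knockout list (71.5). In bp the IGF2BP1 knockout was 1.55 times as wide as the control, and the IGF2BP2 and IGF2BP3 knockouts 1.10 and 1.13 times. With each width divided by the median of its list, these ratios were 1.43, 1.31 and 1.22. On both scales the control was lowest and the IGF2BP1 knockout highest. The added length in the IGF2BP1 knockout lay on both sides, with 601 bp upstream and 725 bp into IFIH1 against 458 and 396 bp in the control.

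A second region of IFIH1 lay inside the gene, centred 17.3 kb from the start. Its peak spanned chr2:162301075-162301612 in the control (538 bp, percentile 22.4). It was 542 bp wide in the IGF2BP1 knockout list (percentile 15) and 489 bp in that of IGF2BP2 (25.6), and was absent from the IGF2BP3 knockout list. It was narrow in each list that held it. Regions missing from the IGF2BP3 knockout alone made up 5.26% of the 44916 regions in or within 10 kb of protein-coding genes. Among regions whose control peak lay within 2.5 percentile points of this one, 28.1% of 1917 had no peak in the IGF2BP3 knockout list. Chromosome 2 held 5.59% of the peaks of that list against 7.18% in the control, 7.64% in the IGF2BP1 knockout and 7.80% in the IGF2BP2 knockout, and the part of this share in the missing peak was not tested.

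DHX58 (chr17:42101411-42112714) had peaks in every list at one end and inside the gene, and in no list within 1 kb of the other end. At the end of lower coordinate, the peak was 560 bp wide in the control list (percentile 25.4), 722 bp in the IGF2BP1 knockout list (37.1), 446 bp in the IGF2BP2 knockout list (18.7) and 427 bp in the IGF2BP3 knockout list (13.6). It was the narrowest gene-end or start peak of the members in each list. The IGF2BP1 knockout peak was wider than the control peak (1.29 times) and the other 2 were narrower (0.796 and 0.762 times). The region within the gene, chr17:42107562-42108360, had widths of 799, 719, 690 and 690 bp in the control and the 3 knockouts, IGF2BP1 first, at percentiles 52.8, 36.7, 55.1 and 47.1.

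Both other regions in the DHX58 window belonged to its neighbour KAT2A, a histone acetyltransferase gene. The region at the KAT2A start (chr17:42120733-42121690) was in all 4 lists, with widths of 933, 956, 730 and 937 bp in the same order of lists and percentiles of 64.7, 61.9, 59.7 and 69.5. A narrow region inside KAT2A, 4.10 kb from DHX58, was in the control list (337 bp, percentile 3.4) and the IGF2BP2 knockout list (369 bp, percentile 9.8), and in neither of the others. This pattern accounted for 1.63% of regions near coding genes. Chromosome 17, which also holds TRIM25 and RNF135, held 4.74% of the control peaks. It held 3.52% of peaks in the IGF2BP1 knockout, 4.03% in the IGF2BP2 knockout and 4.73% in the IGF2BP3 knockout. The part of these shares in the missing peaks was not tested.

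MAVS (chr20:3846834-3876118, plus strand) had a broad peak at its start in every list. It was 1099 bp wide in the control list (percentile 76.3), 1443 bp in the IGF2BP1 knockout list (89.1), 1296 bp in the IGF2BP2 knockout list (91.4) and 1313 bp in the IGF2BP3 knockout list (88.7). The control peak was again the narrowest, with ratios to it of 1.31, 1.18 and 1.19, and the 3 knockout percentiles lay within a few points of each other. Of coding genes with a start or gene-end peak in both lists, 75.8%, 48.0% and 48.6% had one wider than the control in the 3 knockouts in turn. The share with a wider peak in all 3 is not given here. A region inside the gene, centred 8.37 kb from the start, was also in all 4 lists, with widths of 738, 695, 856 and 584 bp in the same order and percentiles of 46.3, 33.3, 70.7 and 34.7. There the IGF2BP2 knockout had the widest peak and the control the next, in bp and in rank, an order unlike that at the start.

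TRIM25 (chr17:56887909-56914049, minus strand) had 1 region, at the start. Its peak was 1146 bp wide in the control list (percentile 79.1), 1224 bp in the IGF2BP1 knockout list (80.0), 1281 bp in the IGF2BP2 knockout list (91.0) and 1091 bp in the IGF2BP3 knockout list (79.1). In bp these widths were close, with ratios to control of 1.07, 1.12 and 0.952. With each width divided by the median of its list, the ratios were 0.987, 1.32 and 1.03, so the IGF2BP2 knockout stood apart on that scale. The GAAA motif at the start lay inside the peak in all 4 lists, since the 300-base windows of RIGI, IFIH1, MAVS and TRIM25 were covered whole in each list.

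RNF135 (chr17:30958921-30999911) had no peak within 1 kb of either annotated end in any list. A broad region inside the gene (chr17:30970661-30972151) began 11.7 kb from its nearer end and was in all 4 lists. Its peak was 1270 bp wide in the control list (percentile 85.2), 1471 bp in the IGF2BP1 knockout list (89.9), 1133 bp in the IGF2BP2 knockout list (86.0) and 1072 bp in the IGF2BP3 knockout list (78.1), a width like that of the start peaks of MAVS and TRIM25. The gene table lists 9 RefSeq transcripts of RNF135 without their separate starts, so whether this region marks an internal start was not determined. A further region, 8.33 kb beyond the gene over the pseudogene LOC107984974, was in all 4 lists with widths of 1453, 1190, 1213 and 1171 bp and percentiles of 91.5, 78.2, 88.9 and 83.1, the control peak being the highest on both scales.

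ZC3HAV1 (chr7:139043515-139109720, minus strand) had the most regions of the members, 6, against a median of 2 per protein-coding gene window (quartiles 1 and 3). The gene is 66.2 kb long, and that median was not taken over genes of like length. The start peak was the widest of the members in every list, at 1774 bp in the control list (percentile 97.1), 1632 bp in the IGF2BP1 knockout list (93.6), 1738 bp in the IGF2BP2 knockout list (98.1) and 1697 bp in the IGF2BP3 knockout list (96.6). It lay mostly inside the gene, reaching 1580, 1402, 1553 and 1545 bp past the start and 193, 229, 184 and 151 bp before it. The STAT site and the TATA box therefore lay within the peak in each list. Ratios to the control width were 0.920, 0.980 and 0.957, so the start of ZC3HAV1 differed less between lists than those of RIGI, IFIH1 and MAVS.

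Inside ZC3HAV1, regions centred 14.7 and 34.4 kb from the start were in all 4 lists. The first had widths of 1198, 1480, 1217 and 1176 bp in the control and the 3 knockouts in turn, at percentiles 81.9, 90.1, 89 and 83.3. The second had widths of 682, 760, 595 and 573 bp, at percentiles 39.4, 42.1, 42.8 and 33.2. The IGF2BP1 knockout peak was the widest in bp at both, but at the second the IGF2BP2 knockout ranked slightly above it. The region 6.93 kb beyond the other end of the gene was that of the start of ZC3HAV1L, a paralogous gene, and its widths of 1378, 1407, 1432 and 1368 bp (percentiles 89.3, 87.9, 94.4 and 90.4) lay close together.

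One region separated the control from the knockouts. It lay upstream of ZC3HAV1, at chr7:139118306-139119552, centred at -9.21 kb from the start and 8.59 kb outside the gene at its nearest edge. The peak was 1223 bp wide in the IGF2BP1 knockout list (percentile 79.9), 1231 bp in the IGF2BP2 knockout list (89.5) and 1131 bp in the IGF2BP3 knockout list (81.1), and the control list had no peak there. The nearest control peaks were 8.39 kb away on one side, at the ZC3HAV1 start, and 13.7 kb away on the other, and the next coding gene on that side, IFT56, a gene of intraflagellar transport in cilia, began 14.2 kb away.

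Regions in the 3 knockout lists and not in the control made up 5.65% of those in or near coding genes, so 1 of 20 at the members is near the background. The width of this one set it apart within its class. In the whole genome, 4925 regions were in the 3 knockout lists and not in the control, with a median of 500 bp for the smallest of their 3 peaks. By that measure the region at ZC3HAV1 ranked at position 42, and 0.853% of the class was at least as wide. Among regions of like rank, within 2.5 percentile points of this peak, a control peak was missing at 13.1% in the IGF2BP1 knockout list, 8.07% in the IGF2BP2 knockout list and 8.14% in the IGF2BP3 knockout list. All 3 comparisons share the control list, in which a missing peak counts for all of them at once.

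**Figure D2:**
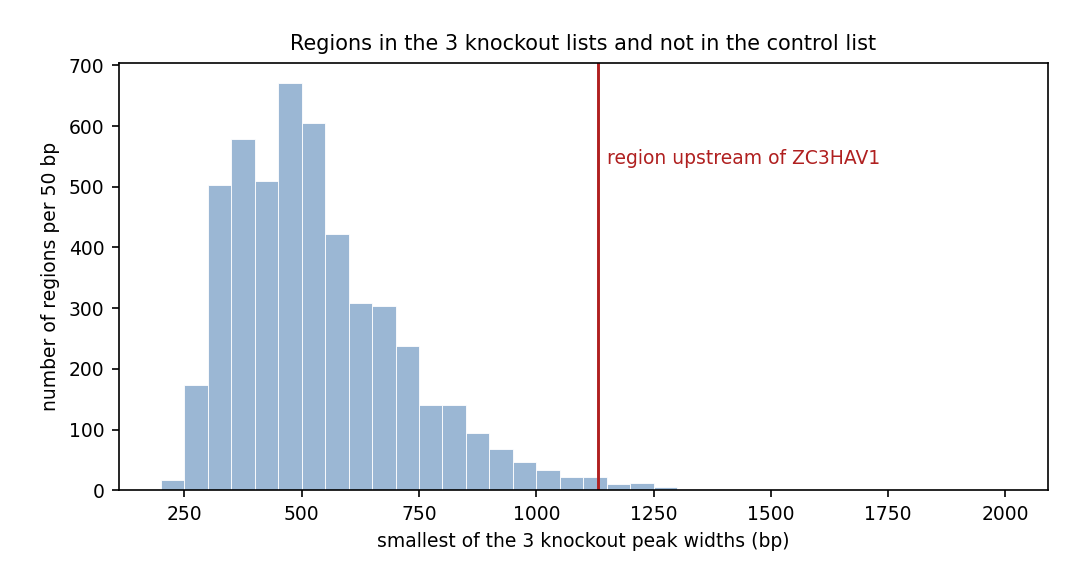
The histogram counts the 4925 regions present in the 3 knockout lists and not in the control list by the smallest of their 3 knockout peak widths, in bins of 50 bp. The line marks the region upstream of ZC3HAV1 at 1131 bp, in the right tail of a distribution with a median of 500 bp.

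A set of 3 further regions was in the IGF2BP2 knockout list alone, which was the longest list. They lay 6.18 kb upstream of MAVS (375 bp, percentile 10.4), inside RNF135 (366 bp, percentile 9.5) and inside ZC3HAV1 (446 bp, percentile 18.7). All were among the narrower peaks of that list. Regions in that list alone made up 12% of regions near coding genes, with a median width of 463 bp, and the part of list length in these 3 peaks was not tested.

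**Figure D3:**
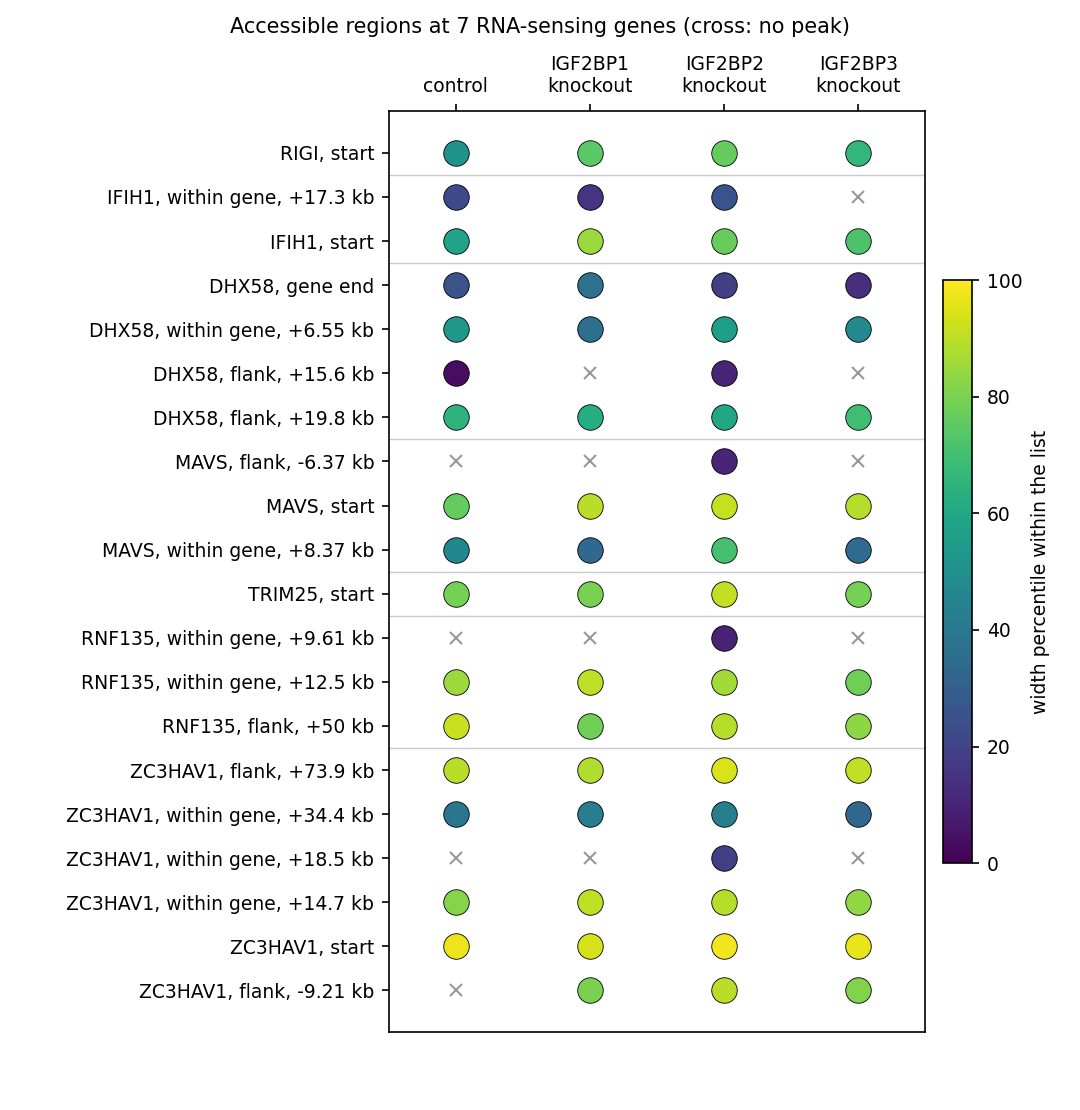
Each row is 1 of the 20 regions and each column 1 of the 4 lists; the colour gives the percentile of the peak width within its list and a cross marks a list without a peak. Distances are from the region's centre to the start, or to the gene end of lower coordinate for DHX58 and RNF135; the control lacks the region at -9.21 kb from the ZC3HAV1 start, which has percentiles of 79.9 to 89.5 in the knockouts.

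In all, 14 of the 20 regions were in every list, against 48.9% of regions in or within 10 kb of coding genes. The other 6 were the region at ZC3HAV1 missing from the control, the 3 found in the IGF2BP2 knockout alone, the internal IFIH1 region missing from the IGF2BP3 knockout and the narrow region in KAT2A. RIGI and TRIM25 were the members whose regions were all in all 4 lists. That was so for 37.9% of the 17941 coding genes with a region in their window, and the 2 of 7 here are near that share.

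**Figure D4:**
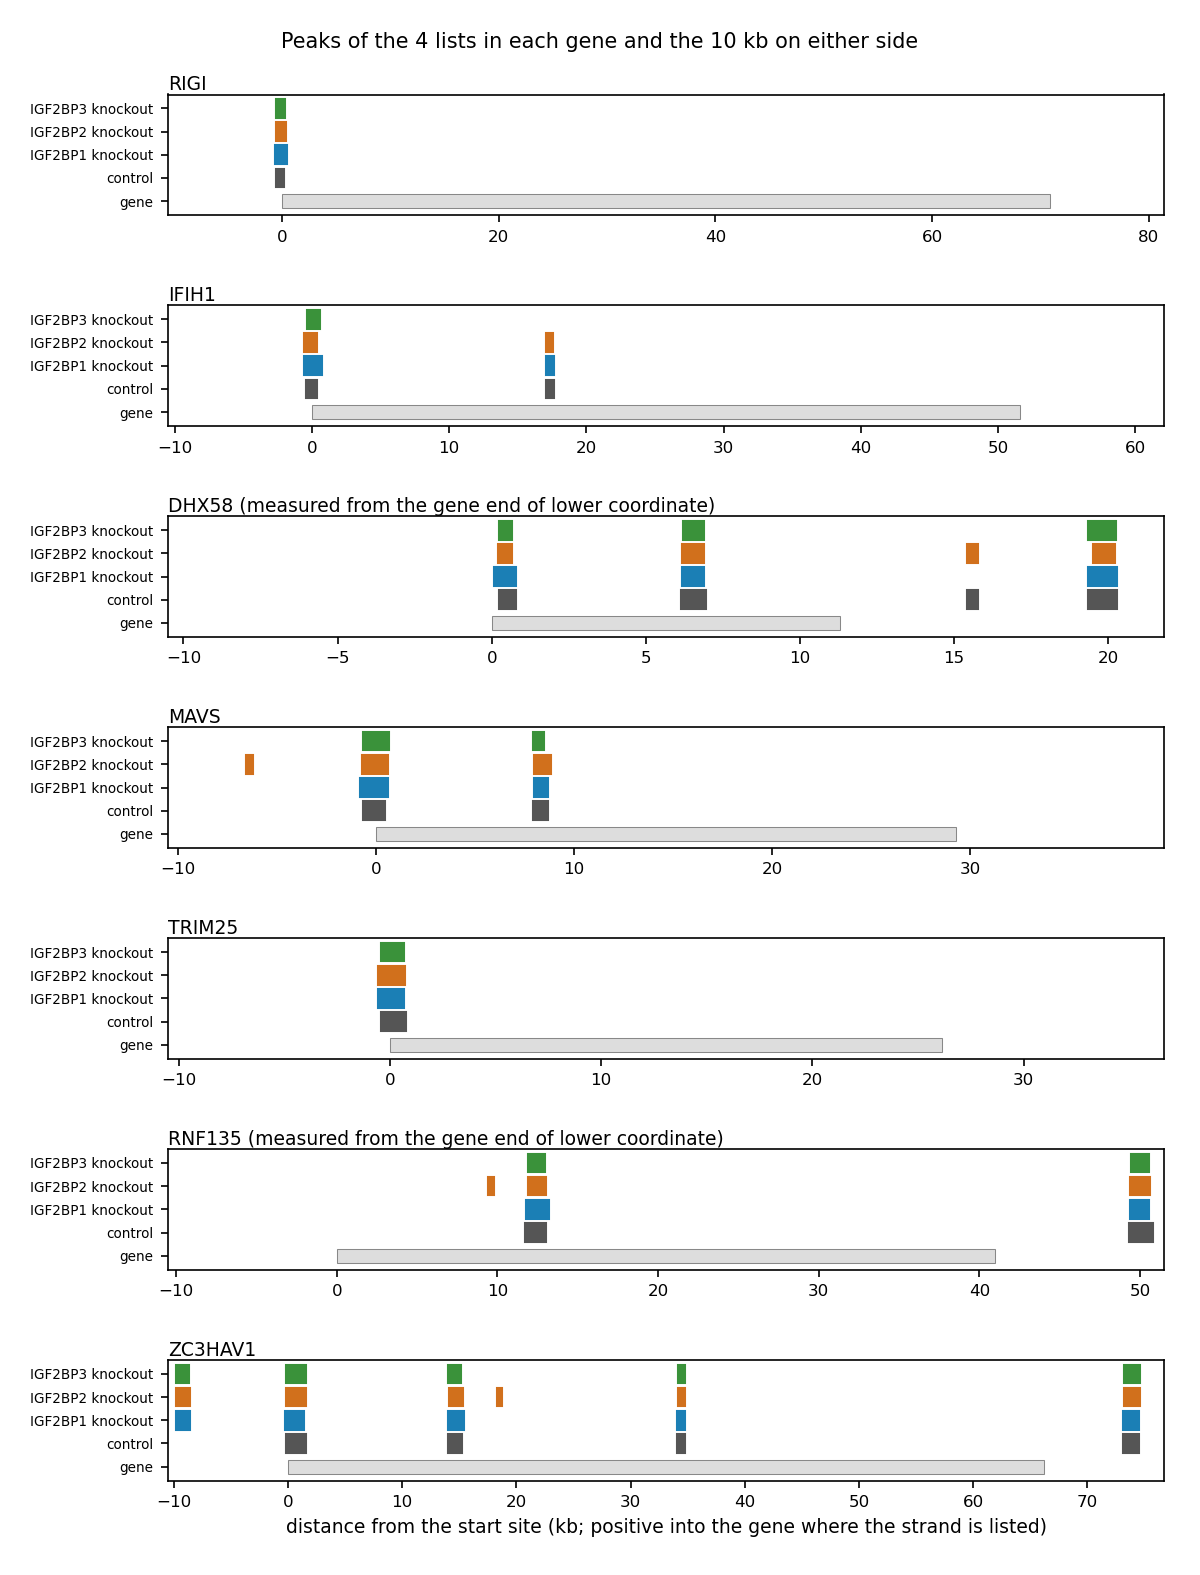
Each panel shows 1 gene (grey bar) with the 10 kb on either side and the peaks of the 4 lists as coloured blocks, against the distance in kb from the start site, positive into the gene; DHX58 and RNF135 are measured from the gene end of lower coordinate. RIGI and TRIM25 have peaks at the start alone, and the blocks left of 0 at ZC3HAV1 are in the 3 knockout lists and not in the control.

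Across the 14 regions in all 4 lists, median width ratios were near those of all such regions in or near coding genes. The IGF2BP1 knockout peak was wider than the control peak at 10 of 14 regions, with a median ratio of 1.09, and at 75.1% of 21959 such regions near coding genes, with the same median of 1.09. For the IGF2BP2 knockout, 7 of 14 were wider, against 47.8% of all, with a median ratio of 0.998 against 0.994. For the IGF2BP3 knockout, 4 of 14 were wider, against 44.0% of all, with a median ratio of 0.954 against 0.980. These 4 were the start regions of RIGI, IFIH1 and MAVS and, at a ratio of 1.00 (937 against 933 bp), that of KAT2A.

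A width at least 1.5 times that of the control, or at most its inverse, was called a difference. Of the 6 members with a start or gene-end peak, 1 was called, IFIH1 in the IGF2BP1 knockout. Divided by the median width of each list, its ratio was 1.43 and it was not called. Among all coding genes with such a peak in both lists, 6.10% were called wider and 0.750% narrower in the IGF2BP1 knockout. In the IGF2BP2 knockout, 0 members were called, against 1.71% of genes wider and 5.05% narrower. In the IGF2BP3 knockout it was again 0 members, against 2.45% wider and 4.08% narrower. RIGI, at 1.45 times in the IGF2BP1 knockout, was the member nearest to the threshold from below.

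**Figure D5:**
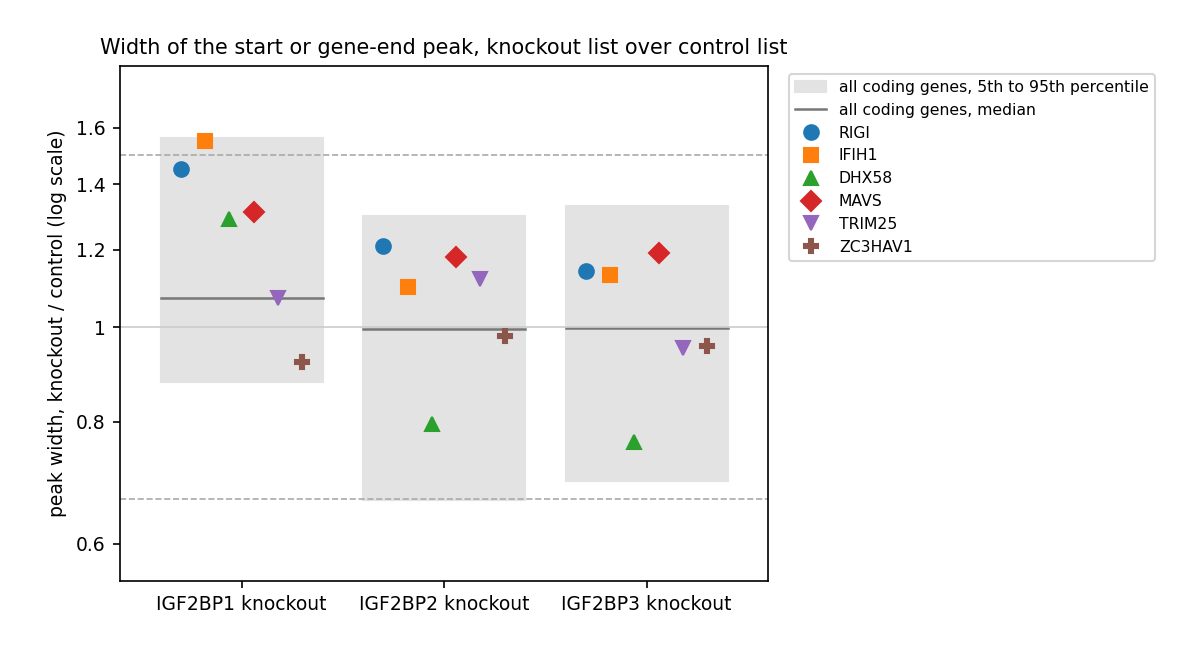
Points give the ratio of peak width in each knockout list to that in the control list for the 6 members with a start or gene-end peak, on a log axis; the grey box spans the 5th to 95th percentile of all coding genes, the grey line their median, and the dashed lines the 1.5-fold limits. IFIH1 in the IGF2BP1 knockout, at 1.55, is the one point past a limit, and every point lies within the box.

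Likeness to other genes was described by the 4 width percentiles of the start or gene-end peak, over 4 lists. For DHX58 it was a gene-end peak. Of 12808 coding genes (12807 for IFIH1) with a peak in all 4 lists and outside the sets listed here, NOTCH2 was closest to ZC3HAV1, with a largest difference of 0.660 percentile points. RIDA was closest to TRIM25 (0.872 points), PDCD7 to MAVS (1.58 points), PSMD1 to RIGI (2.31 points), CHRDL1 to IFIH1 (3.25 points) and GPX8 to DHX58 (6.53 points).

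The wider pathway was covered by a list of 60 genes, of which 53, 53, 54 and 52 had a start or gene-end peak in the control and the 3 knockout lists in turn, and 51 had one in all 4. The share of all coding genes was 66.5% to 68.6% in a list and 64.1% in all 4. By role, 18 of 22 genes that signal below MAVS, 19 of 20 cofactors, 14 of 14 restraining or modulating factors and 0 of 4 interferon genes had a peak in all 4 lists. The widest peak near a start or gene end was taken in each list, and at 3 of the 51, NLRC5, RIPK1 and TRAF5, it was not the same region in every list. That was so at 3.18% of 12865 coding genes and at 0 of the 6 members. The 5 genes without one in any list were TRAF3, a ubiquitin ligase bound by MAVS, the transcription factor IRF5, STING1, the adaptor of DNA sensing, and the interferon genes IFNB1 and IFNL1.

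Presence differed from the control at 4 pathway genes. Of the 7 pathway genes without a control peak, 1, 2 and 0 gained one in the 3 knockout lists in turn, where 8.22%, 8.67% and 6.72% of such coding genes did. Of the 53 with a control peak, 1 lacked it in each knockout, where 1.03%, 1.97% and 2.08% of such coding genes did. IFNL3, an interferon lambda gene, had a narrow peak at its start in the IGF2BP1 knockout (549 bp, percentile 15.9) and the IGF2BP2 knockout (566 bp, percentile 38.8), and none in the control or the IGF2BP3 knockout. IFNL2 had one in the IGF2BP2 knockout alone (494 bp, percentile 26.6). These paralogues are near-identical in sequence, so reads could have been placed on either. CASP10, a caspase, had gene-end peaks in the control (644 bp, percentile 34.9) and the IGF2BP2 knockout (704 bp, percentile 56.8) and lacked one in the others. IRF7, the interferon regulatory factor that amplifies the response, lacked one in the IGF2BP2 knockout, where the widths were 626 bp for the control (percentile 32.9), 815 bp for the IGF2BP1 knockout (48.1) and 378 bp for the IGF2BP3 knockout (8.52).

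Past the 1.5-fold limit, 3 of 52 pathway genes (5.77%) were wider and 0 narrower in the IGF2BP1 knockout. In the IGF2BP2 knockout, 0 were wider and 3 of 52 (5.77%) narrower, and in the IGF2BP3 knockout 1 was wider (1.92%) and 2 narrower (3.85%). These shares are near those of all coding genes. The following were named after their values were seen. IRF3, the main transcription factor of the pathway, had gene-end peaks of 2012 bp in the IGF2BP1 knockout (percentile 98.2) and 827 bp in the control (55.4), a ratio of 2.43. TRADD and TRIM65, a death-domain adaptor and a ubiquitin ligase of MDA5, stood at 2.07 and 1.61 in the same list, and ZCCHC3, an RNA-binding cofactor, at 2.57 in the IGF2BP3 knockout. The narrower ones were PCBP2 (0.493), IKBKE (0.572) and TRIM14 (0.579) in the IGF2BP2 knockout, and IRF7 (0.604) and TBKBP1 (0.657) in the IGF2BP3 knockout. IKBKE is a kinase that activates IRF3, TBKBP1 binds the related kinase TBK1, and PCBP2 promotes the breakdown of MAVS. For IRF3, IRF7, TRADD and ZCCHC3 the widest peak at either gene end was taken, which may belong to a neighbouring gene. All these ratios are in bp and were not divided by the list medians. Summed or merged peaks were run for the members alone. At a pathway gene, a site split into separate peaks in a list could therefore read as a narrower peak.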

How the data were processed

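ATAC-seq, in which the Tn5 transposase cuts accessible DNA, was run on HEK293T cells with the Omni-ATAC lysis and buffer, per the labels' protocols. The authors deposited 1 list of peaks per group, each with 3 columns (chromosome, start, end) and no score. Tools named in the submitters' processing notes are fastp 0.24.1, BWA 0.7.17, MACS2 3.0.0 and bedtools, with the build GRCh38; thresholds, the transposase offset and how libraries were combined are not given in the sources used here. Depth is unknown, so precision cannot be stated.

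Positions were counted from 1. Peaks sharing at least 1 bp were joined into regions (Python 3.11.15, pandas 2.3.3; checked on simulated peaks). Starts came from the RefSeq promoter table (15843 of 20056 coding genes) and otherwise both gene ends were used; the widest peak within 1 kb was taken. Exons were not annotated. Members and gene lists were chosen with earlier results of these data known. The naming rule covered all members, regions absent from a list, pathway genes whose peak presence differed from the control, and 1 most alike gene per member. Alternatives covered the flank, the overlap, the distance to the start, the peak chosen, list length and width scaling.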

Additional observations from a re-analysis of the deposited data

How the results depend on the processing

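Results rest on presence and width alone, without depth or replicates. Leaving out libraries was not run because each list combines its group's libraries. No paired analysis was possible because the deposited lists hold no values per library. The region upstream of ZC3HAV1 depended on the flank: with the gene body alone, or with 5 kb on either side, 0 regions were in the 3 knockouts and not in the control. With the 39194 widest peaks of each list it was kept, whereas the 3 regions of the IGF2BP2 knockout alone and the internal IFIH1 peaks of the IGF2BP1 and IGF2BP2 knockouts fell below the smallest widths retained (612 and 541 bp in those lists), which left the latter region in the control alone. The IGF2BP2 knockout peaks at the DHX58 gene end and in the narrow KAT2A region were not retained either, which left the KAT2A region, too, in the control alone. The call of IFIH1 in the IGF2BP1 knockout was lost when widths were divided by the list median (ratio 1.43) or read as percentiles (1.46), which brought the number of called members there to 0. With percentiles, 1 member was called in the IGF2BP2 knockout (RIGI, 1.5) and 1 in the IGF2BP3 knockout (DHX58, 0.535). The other counts of regions and of genes with a start peak stayed within 1.5 times under each alternative run for them.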
